A study of Homo sapiens with 6 samples.

Results

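The numbered zinc finger genes of chromosome 19 were examined in the merged transcript assembly of an RNA sequencing series on EndoC-βH1, an established human pancreatic beta cell line. Members were taken by name and place alone: every model on the main chromosome 19 sequence whose gene name was ZNF followed by digits. This gave 238 gene names of the 25211 in the file, at 236 loci, with 504 transcript models. All cells carried a lentiviral shRNA construct aimed at the insulin gene (INS) promoter. In 3 libraries the shRNA was induced with doxycycline (1 mg/mL for 7 days, as labelled), while the 3 negative controls carried the construct without the drug. The labels list no group that received doxycycline without the hairpin. The assembly pools all 6 libraries, gives exon positions with no abundance, and carries much of the RefSeq annotation whether or not a gene is used in these cells. Neither the beta cell markers nor any difference between the groups could therefore be measured, sequencing depth is unknown, and every value below describes transcript structure.

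A classical zinc finger is a short protein fold in which a pair of cysteines and a pair of histidines hold 1 zinc ion, and proteins with many fingers in tandem read DNA sequence. A large share of the human genes of this kind also encode a KRAB domain, whose A box binds TRIM28, a scaffold that brings in the histone methyltransferase SETDB1 and silences chromatin, often at transposable elements. Genes of this class have multiplied by tandem duplication, and chromosome 19 holds many of them. In the usual layout, short upstream exons encode the KRAB A box and B box and a single long last exon encodes the whole run of fingers.

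The exon that carries the KRAB A box had the internal exon length most repeated in the family. Of this exon, 5 copies are shown because later results turn on them. Each has 127 bases on hg19 and is read in frame from its first base. The capitals mark the codons of the KRAB A core, a pattern of 8 conserved positions within 19 residues.
ZNF135, chr19:58572948-58573074, plus strand: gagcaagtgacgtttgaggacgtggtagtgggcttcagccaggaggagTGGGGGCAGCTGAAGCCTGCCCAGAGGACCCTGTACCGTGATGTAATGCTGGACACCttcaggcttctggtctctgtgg
ZNF611, chr19:53217268-53217394, minus strand: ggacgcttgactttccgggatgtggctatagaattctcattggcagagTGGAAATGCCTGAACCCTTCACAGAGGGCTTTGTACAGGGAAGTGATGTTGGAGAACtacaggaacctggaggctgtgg
ZNF85, chr19:21116830-21116956, plus strand: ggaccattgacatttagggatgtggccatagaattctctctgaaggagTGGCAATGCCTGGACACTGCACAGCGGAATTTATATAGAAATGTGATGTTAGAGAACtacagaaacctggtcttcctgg
ZNF443, chr19:12543885-12544011, minus strand: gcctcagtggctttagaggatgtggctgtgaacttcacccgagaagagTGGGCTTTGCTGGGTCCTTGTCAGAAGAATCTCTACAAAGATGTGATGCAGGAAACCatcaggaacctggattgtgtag
ZNF799, chr19:12504111-12504237, minus strand: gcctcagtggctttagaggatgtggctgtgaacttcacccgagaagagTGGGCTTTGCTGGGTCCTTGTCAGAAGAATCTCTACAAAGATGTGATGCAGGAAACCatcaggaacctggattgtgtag

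The members lay in clusters. With a gap of over 200 kb between neighbours taken as a boundary, they fell into 33 clusters along the chromosome. The 7 clusters with at least 10 members held 173 of the 238 (72.7%) on a summed span of 8.3 Mb, 14% of the 59.1 Mb chromosome, while 14 members stood alone. The largest cluster ran from ZNF264 to ZNF446 (chr19:57702868-58992597) with 41 members, which made up 68.3% of the gene names there.
Next came the cluster from ZNF577 to ZNF331 (chr19:52359056-54083523) with 37 members and the one from ZNF653 to ZNF791 (chr19:11594242-12740676) with 26. Of the 205 neighbouring pairs within clusters, 130 (63.4%) lay on the same strand, and the cluster from ZNF577 to ZNF331 had 31 of its 36 pairs on the same strand.

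**Figure D1:**
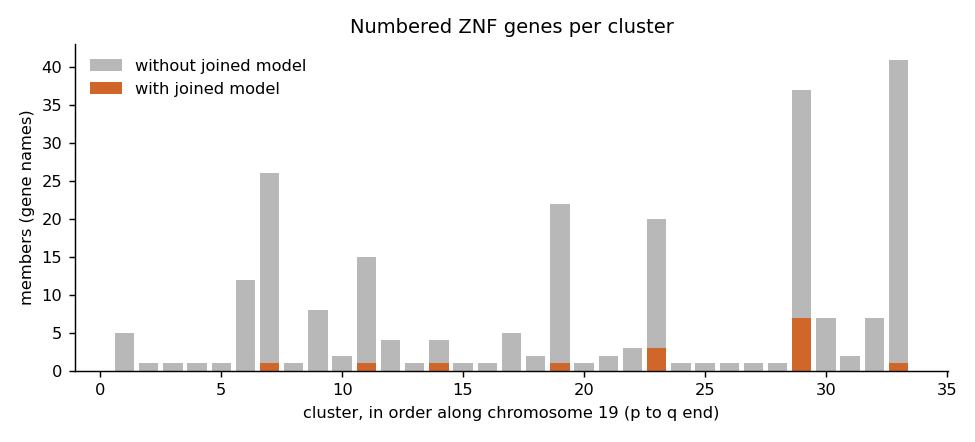
Number of numbered ZNF genes in each of the 33 clusters in order along chromosome 19 (bars), with those that had a joined model in orange. The 3 tallest bars are the clusters of 41, 37 and 26 members, and the cluster of 37 members holds 7 of the 15 members with a joined model.

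A single exon length recurred among the small upstream exons. Among 754 distinct internal exons of the members, 188 (24.9%) had 127 bases, in 184 members (77.6% of the 237 with a multi-exon reference transcript). A reference transcript here is a model that matches a RefSeq transcript exactly and carries its name. An internal exon of that length was present at 6.33% of all multi-exon gene names in the file, at 5.33% of the other chromosome 19 names and at 41.4% of numbered ZNF names on other chromosomes. The next most frequent length was 96 bases, in 73 members (30.8%, against 7.92% in the whole file and 21.1% among numbered ZNF names elsewhere), of which 69 also had a 127-base exon. In 103 of the 115 member transcripts with an internal 96-base exon, it directly followed the 127-base exon, the order of the KRAB A and B boxes. In all other gene names 96 bases was also the most frequent internal exon length, with 1786 exons, whereas 127 was not among their 10 most frequent.

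**Figure D2:**
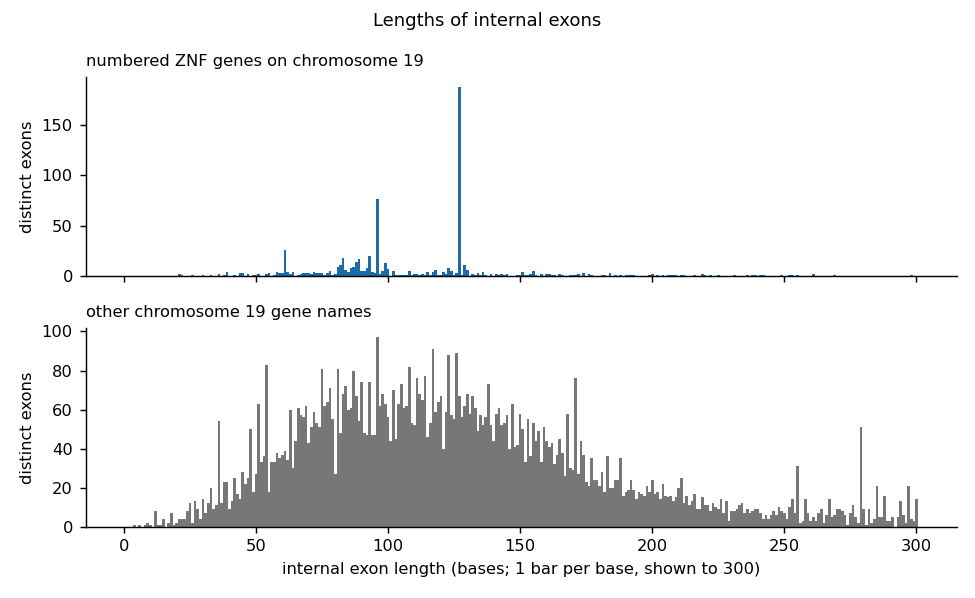
Distinct internal exons by length, 1 bar per base, for the members (upper panel) and for other chromosome 19 gene names (lower panel). The members show single-base spikes at 127 bases (188 exons) and 96 bases (76 exons), while the other genes have a broad hump with a median of 123 bases.

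Nearly all of these exons could be read as a KRAB A box. Translated from the first base, 187 of the 188 were free of stops and 180, in 178 members, held the core pattern. The first position of the pattern admits leucine as well as tryptophan. Exons such as those of ZNF221 and ZNF224, with leucine there, would be missed by a pattern limited to tryptophan. The count of 180 therefore depends on the pattern chosen. Of 67 exons of the same length in other chromosome 19 genes, 17 held the core, including exons of HKR1, ZIM3, ZFP28 and ZNF780A, all KRAB zinc finger genes outside the naming rule. A length of 127 bases is not a multiple of 3, so leaving the exon out shifts the reading frame, whereas leaving out 96 bases does not. In 9 members the exon was present in a transcript but never lay whole inside the longest frame from ATG to stop. In ZNF324 the frame of its 1 transcript still held the KRAB core. No longest frame held the core in the other 8, ZNF266, ZNF492, ZNF525, ZNF567, ZNF714, ZNF738, ZNF788 and ZNF83. Of these, ZNF83 (chr19:53115618-53193834) had 2 such exons and 12 reference transcripts, and all 12 contained the same frame of 516 amino acids with 14 fingers and no KRAB core. The other members with 2 exons of this length were ZNF180, ZNF274 and ZNF560. ZNF274 encodes a factor known to bring SETDB1 to the 3′ ends of other zinc finger genes.

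The KRAB A exons were more alike within a cluster than between clusters. Over 178 members with the core, the median identity was 79.5% in 1641 pairs from the same cluster and 66.1% in 14112 pairs from different clusters, and the closest relative lay in the same cluster for 139 members (78.1%). Pairs share members, so these are descriptions without a test. The cluster from ZNF85 to ZNF98 was the most uniform of those with at least 10 pairs, with a median of 90.6% over 14 exons, and the cluster from ZNF264 to ZNF446 the least, with 70.9% over 30. The exons of ZNF443 and ZNF799, printed above, were identical over all 127 bases. So were those of ZNF320 and ZNF701, and those of ZNF525, ZNF765 and ZNF813. How the authors' alignment treated reads from such near-identical exons is not known here, so the assignment of a model to 1 of these genes is uncertain.

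The last exon was long and held the fingers. In the longest reference transcript of each member it had a median of 2584 bases (187 to 11493), against 685 bases for other chromosome 19 names, 2434.5 for numbered ZNF names on other chromosomes and 1116 for the whole file. It reached 1000 bases in 230 of 237 members (97%), where the whole file had 53.8% and numbered ZNF names on other chromosomes 88.4%. The last exon made up a median of 85.5% of the spliced length, compared with 38.3% for other chromosome 19 names and 78.5% for numbered ZNF names elsewhere. The median number of exons was 4 in members, 5 in ZNF names elsewhere and 7 in other chromosome 19 names.

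**Figure D3:**
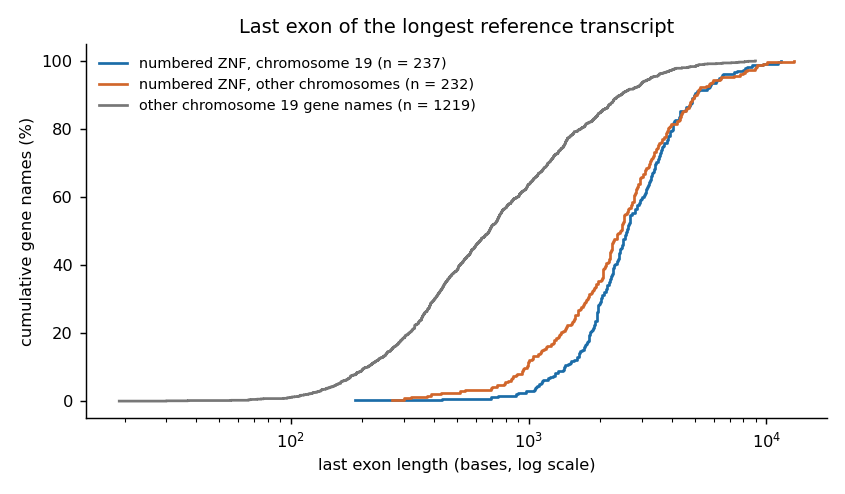
Cumulative share of gene names (%) by last exon length in bases on a log scale, for the members, for numbered ZNF genes on other chromosomes and for other chromosome 19 names. Both ZNF curves lie far to the right of the third, with medians of 2584, 2434.5 and 685 bases.

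A zinc finger was counted where the longest frame had 2 cysteines with 2 residues between them, then 12 residues, then 2 histidines with 3 residues between them. In total 2912 fingers were found, a median of 12 per member (quartiles 9 and 15). Of the 2889 in frames from multi-exon transcripts, 2846 (98.5%) lay in the last exon, and in 228 of 235 members with fingers all of them did. Neighbouring fingers were regularly spaced: 2489 of 2675 steps from 1 finger to the next (93%) were exactly 28 residues, a repeat of 84 bases, and a further 67 (2.5%) were larger multiples of it, as where 1 finger no longer fits the pattern. Where the last junction lay inside the frame, in 213 members, it split the codon after the first base in 167, after the second in 32 and between codons in 14.

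The most fingers were counted in ZNF208 (chr19:22148897-22193745) with 36, ZNF729 (chr19:22469252-22499978) with 34 and ZNF91 (chr19:23540498-23578269), a repressor of SVA retroelements, with 31. Each had a single reference transcript of 4 exons, with all fingers in the last. At the other end, ZNF69 (chr19:11998670-12025365) had a frame of 149 amino acids with the KRAB core and no finger. The longest last exons were those of ZNF264 (11493 bases), ZNF738 (11194) and ZNF805 (9666), with 13, 8 and 13 fingers. Length beyond the stop codon therefore varied as well: the median frame filled 1520 bases of the last exon and a median of 980 bases followed the stop. Across 237 members the number of fingers had a Pearson correlation of 0.298 (Spearman 0.303) with last exon length. The number of fingers in the last exon had one of 0.892 with the part of that exon inside the frame, to which the fingers themselves contribute.

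Only 7 members had a finger before the last exon, and they were of 2 kinds. ZNF414, ZNF653, ZNF536, ZNF507 and ZNF541 had 1 to 7 fingers, in 1 to 4 exons, and no 127-base exon. ZNF414 (187 bases), ZNF653 (433) and ZNF541 (693) had the shortest last exons of all members. ZNF418 and ZNF550, in contrast, had the usual run of 16 and 8 fingers inside 1 exon, the fourth, with further exons after it.

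**Figure D4:**
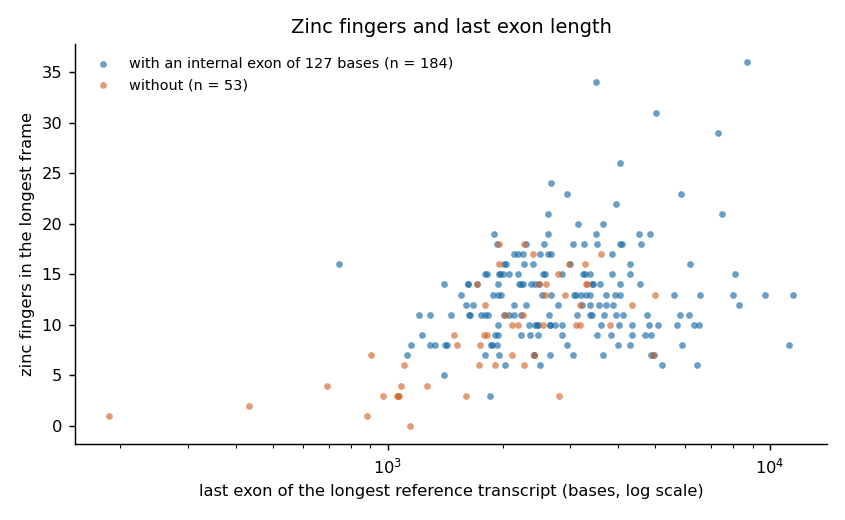
Zinc fingers in the longest frame against last exon length (bases, log scale) for the 237 multi-exon members, coloured by whether an internal exon of 127 bases was present. Of the 14 members with under 5 fingers ZNF114 alone had that exon, and the median was 10 fingers over all 54 members without it against 13 over the 184 with it.

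Some annotated transcripts separated the KRAB box from the fingers. Of 449 member transcripts with a protein-coding accession, 16, in 13 members, had no finger in the longest frame, and 12 of the 16 kept the KRAB core. Their frames had a median of 109.5 amino acids. At ZNF226 (chr19:44669215-44681838), 3 of the 5 reference transcripts were of this kind, with a frame of 94 amino acids. In the other direction, 30 of the 71 members with several reference transcripts and a KRAB core in at least 1 frame also had a transcript without it. This count took in non-coding accessions as well and did not require a finger in the transcript without the core. How many of those transcripts had a coding accession was not counted.

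Most members had a single start site group and a single protein product, but 149 of the 238 had only 1 reference transcript. For those 149, no more than 1 of either was possible. The file gives a start site group to each set of models that begin together and a protein tag (p_id) to each distinct coding sequence. More than 1 start site group was present in 24 of 238 members (10.1%), against 15.9% in the whole file and 11.9% among other chromosome 19 names. More than 1 protein tag was present in 64 (26.9%), against 28.1% and 25.5% in the same order. Among the 89 members with several reference transcripts, 64 had several tags and 25 had 1. Of the 24, 16 also had several tags and 8 had 1, while 48 of the 214 members with 1 start site group had several tags. All 449 transcripts with a coding accession had a tag and none of the 30 with a non-coding accession did. ZNF525, ZNF738 and ZNF788 had non-coding accessions only. In 80 of 83 members with several coding transcripts, the number of tags equalled the number of distinct longest frames.

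Many starts did not always go with many protein tags. ZNF331 (chr19:54024177-54083523), an imprinted gene, had 6 start site groups spread over 34384 bases, and its 7 reference transcripts shared 1 frame of 463 amino acids with 12 fingers and 1 protein tag. ZNF790 (chr19:37309224-37341689) had 4 groups over 12760 bases with 1 frame of 636 amino acids. ZNF345 (chr19:37341260-37384120), which lies on the opposite strand with its first start inside ZNF790, had 3 groups and 1 tag. ZNF761 also had 3 groups, with 2 tags. The library kit (SMART-Seq cDNA cut with Nextera) does not mark strand, so reads from the overlap of ZNF345 and ZNF790 cannot be told apart. By contrast, ZNF419 (chr19:57999079-58006048) had 10 reference transcripts with 10 protein tags from 1 start site group. The pattern of 1 start and several products was also seen at ZNF135, with 7 tags for 7 transcripts, and at ZNF211, with 6 tags for its 6 coding transcripts.

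Joined models, which share junctions with a reference transcript but combine them into a chain absent from RefSeq, were present at 15 members with 24 models. That is 6.33% of the 237 multi-exon members (exact Clopper-Pearson 95% interval 3.59 to 10.2%, for counting error only), against a background of 12.4% in the whole file and 11.2% among ZNF names on other chromosomes. By number of multi-exon reference transcripts, it was 1 of 148 members with 1 (whole file 0.739%), 0 of 39 with 2 (6.03%), 3 of 17 with 3 (34%) and 11 of 33 with 4 or more (52.2%), so most members with a joined model had at least 4. Among members with at least 2 multi-exon reference transcripts it was 15.7% (14 of 89), against 27.7% in the whole file and 23.4% among ZNF names on other chromosomes. With at least 3 it was 28% (14 of 50, interval 16.2 to 42.5%), against 44.6% and 33.3% (interval 22.4 to 45.7%) in the same order. Limited further to genes whose longest reference transcript had 3 to 6 exons, it was 27% in members (10 of 37, interval 13.8 to 44.1%) and 24.6% in the whole file (353 of 1435). The last limit was chosen after seeing the data, and its interval is wide. Whether exon or transcript number accounts for the lower share over all members was not tested. Every intron of the 24 models was annotated in RefSeq, 23 chains were made of 2 runs of reference introns, and the chain of 1, at ZNF714, was present in GENCODE.

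In most joined models the finger array was untouched. The longest frame held as many fingers as in the reference named as nearest in 16 of the 24, fewer in 7 and more in 1. In 19 the frame was identical to that of some reference transcript at the locus. The 5 exceptions were the 4 models of ZNF135 and the 1 of ZNF254. None of the 24 carried a protein tag, nor did any of the 5237 joined models of the file.

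**Figure D5:**
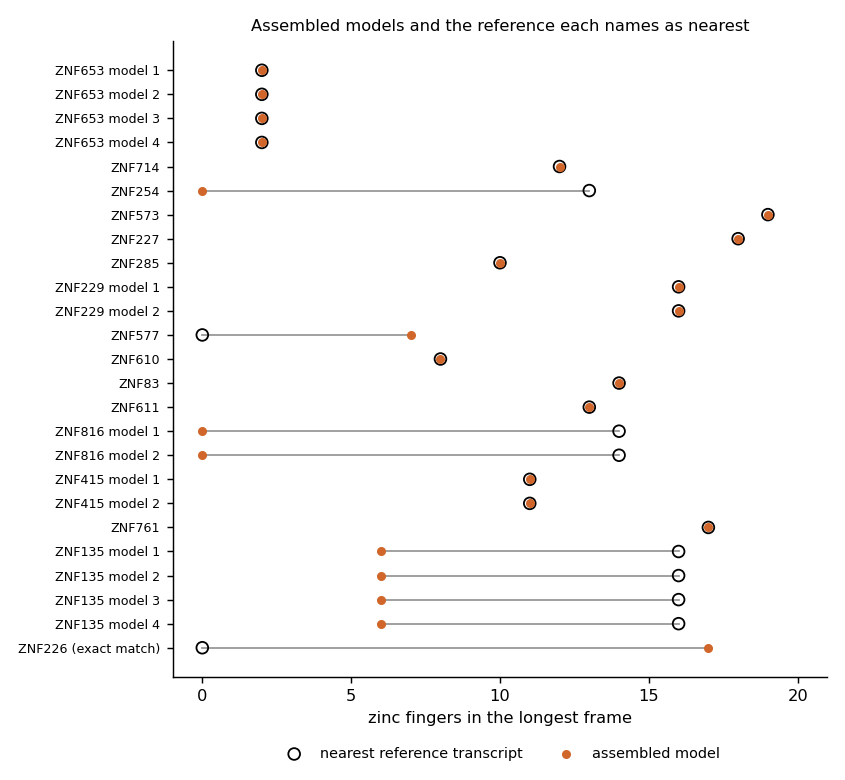
Zinc fingers in the longest frame of each assembled model (orange points) and of the reference transcript it names as nearest (open circles), for the 24 joined models and the exact match at ZNF226. In 16 joined models both coincide, and the widest gaps are at ZNF135 (16 to 6), ZNF816 (14 to 0), ZNF254 (13 to 0) and ZNF226 (0 to 17).

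ZNF135 (chr19:58570607-58581110) showed a change inside the finger array itself. Its longest reference transcript ended in an exon of 3002 bases with 16 fingers, while 1 of its 7 reference transcripts, and all 4 joined models, cut that exon into 2 parts, the second of 1335 bases. The intron removed (chr19:58578936-58579775, plus strand) had 840 bases, exactly 10 finger units of 84 bases. In the longest frame of each of these models 6 fingers remained. For the joined model whose longest frame was 198 amino acids, a frame begun at the start codon of the nearest reference had 61 amino acids and no finger. The intron began with GC and ended with AG. Of 1168 distinct introns in the members' reference transcripts, 1158 (99.1%) were GT-AG and 8 GC-AG. The intron is also in GENCODE. Only 3 other member introns lay inside the last exon of another transcript of their gene, at ZNF154 (2) and ZNF714 (1). They were GT-AG, were not multiples of 84 bases and removed no finger.

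The bases around both ends of this intron are printed because they come from equivalent places in different fingers. Each window has 42 bases on either side of a junction, and the capitals mark a direct repeat of 8 bases.
ZNF135 first junction: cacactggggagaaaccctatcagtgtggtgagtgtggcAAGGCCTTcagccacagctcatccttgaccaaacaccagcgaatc
ZNF135 second junction: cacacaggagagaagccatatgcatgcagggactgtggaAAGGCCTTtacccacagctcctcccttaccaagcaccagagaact
The windows were identical at 63 of 84 bases (75%). Either junction lay 18 bases into a finger, the first in finger 6 and the second in finger 16. The joined chain thus holds 1 whole finger made from parts of both. The assembly holds no reads, so whether the gap in these models arose by splicing was not tested. In the cores below, from the first cysteine to the last histidine (63 bases), the capitals mark the cysteine and histidine codons.
Finger 6, chr19:58578918-58578980, plus strand: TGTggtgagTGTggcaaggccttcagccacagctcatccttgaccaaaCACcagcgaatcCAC
Finger 16, chr19:58579758-58579820, plus strand: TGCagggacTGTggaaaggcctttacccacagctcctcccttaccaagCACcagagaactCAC
Finger across the junction: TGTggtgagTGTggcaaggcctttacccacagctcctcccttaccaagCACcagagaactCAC
The joined finger kept all 4 of these codons and was present in all 4 joined models. It matched finger 6 at 54 and finger 16 at 58 of the 63 bases. Among the 120 pairs of ZNF135 fingers, identity ranged from 50.8 to 88.9% with a median of 68.3%. The 4 models differed upstream: 2 had the KRAB core in the frame, with 378 and 390 amino acids, and 2 did not, with 336 and 198. The frame of the nearest reference (616 amino acids) lacked the core, but the frames of 5 of the 7 reference transcripts of ZNF135 held it.

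At 2 other genes the joined models lost the fingers altogether. In both ZNF816 models (chr19:53430388-53466164), the usual last exon of 2206 bases was replaced by one of 2280 bases that belongs to ZNF321P, reached through a junction of the read-through gene ZNF816-ZNF321P. Their frame had 233 amino acids with the KRAB core and no finger, where the nearest reference had 651 with 14 fingers. At ZNF254 (chr19:24216207-24312769), the model ended in an alternative last exon of 137 bases in place of 3714. Its longest frame was 50 amino acids with no finger, against 618 with 13 fingers in the nearest reference, and neither frame held the KRAB core. A reference transcript of ZNF254 with the same 137-base exon had a frame of 91 amino acids with the KRAB core, and the joined model differed from it in the exons upstream of the KRAB box.

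ZNF577 (chr19:52359056-52391229) was the single case with more fingers than the nearest reference. That reference has a non-coding accession and a longest frame of 111 amino acids with the KRAB core and no finger, while the joined model ended in an exon of 2232 bases and had 426 amino acids with 7 fingers. The ZNF714 model kept the 12 fingers of its nearest reference and ended in an exon of 8271 bases in place of 2 exons of 2076 and 120.

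Leaving out a KRAB exon of the nearest reference was seen in 1 joined model. The ZNF611 model (chr19:53206066-53238307) lacked the 127-base exon printed above, went straight from an exon of 82 bases to the finger exon of 4052 bases, and had a frame of 636 amino acids with 13 fingers and no KRAB core, against 705 with 13 fingers and the core. A frame begun at the start codon of that reference would stop after 27 amino acids. The frame of 636 was also that of a reference transcript of ZNF611. The ZNF610 model had another first exon and lacked an exon of 129 bases, a multiple of 3, and its frame was 419 amino acids against 462, with 8 fingers and the KRAB core in both.

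At the remaining genes the exchange lay upstream of the finger exon. ZNF227, ZNF285, ZNF573, ZNF761 and ZNF83 had 1 such model each and ZNF415 had 2, and the frame in each was as long as in the nearest reference. ZNF229 also had 2, both with 16 fingers and the KRAB core. In the model with a frame of 819 amino acids the KRAB exon had 127 bases, and in the other, as in the nearest reference, it had 145 and the frame 825. At ZNF573 an exon of exactly 127 bases took the place of exons of 45 and 133 bases, and the frame of 607 amino acids with 19 fingers stayed free of the KRAB core. The model of ZNF83 gained 1 exon of 72 bases and held both of its 127-base exons outside the frame of 516 amino acids.

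ZNF653 (chr19:11594242-11639987) differed from the rest in that its 4 joined models began in another gene. Its only reference transcript had 9 exons and 2240 spliced bases. The joined models had 14 to 16 exons and 3288 to 3930 spliced bases, and their first exons were those of ECSIT, which encodes an adaptor of Toll-like receptor signalling and mitochondrial complex I assembly. In the annotation the last exon of ECSIT (chr19:11616731-11617243, 513 bases) and the first exon of ZNF653 (chr19:11616303-11616738, 436 bases) overlap by 8 bases on the same strand. The joined models hold both as a single exon of 941 bases and go on through the other 8 exons of ZNF653. The longest frame was that of ZNF653 in each, with 615 amino acids and 2 fingers. It was chosen by length alone. The ECSIT exons lie upstream in these models, and which frame would be translated was not tested. Models of ECSIT and of this gene share the locus, so a value summed per locus would add them together.

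Shared loci were otherwise rare, with 7 among 236 (2.97%; whole file 2.37%) holding 9 members. ZNF559 and ZNF177 shared a locus with their read-through gene ZNF559-ZNF177, and ZNF625 and ZNF20 with ZNF625-ZNF20. ZNF540 shared one with ZNF571-AS1, ZNF547 with TRAPPC2P1 and ZNF761 with TPM3P9. The read-through names ZNF559-ZNF177 and ZNF625-ZNF20, which are outside the naming rule, had 2 joined models each. A list drawn by name alone held 36 chromosome 19 names outside the rule. It had 21 ZNF names with a letter or a second symbol, and otherwise ZFP, ZSCAN, ZIM and ZIK names and PEG3. The list is not complete, since HKR1 is absent, and it includes antisense names without a finger, such as ZNF571-AS1. Of the 36, 7 had a joined model, where the whole file had 12.4% of multi-exon names. The 36 were not matched to the whole file in exon or transcript number, so these figures are not alike.

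One assembled model matched a reference chain exactly and yet differed in its coding content. At ZNF226 a model with 7 exons had all introns of a reference transcript whose last exon of 446 bases ends before the fingers, but its own last exon had 2702 bases and ran to the end of the full-length transcripts, whose last exons had 2188. Its longest frame was 686 amino acids with 17 fingers and no KRAB core, where the named reference had 94 amino acids with the KRAB core and no finger. None of the 5 reference transcripts of ZNF226 had this frame. The file nevertheless gives the model the protein tag of the 94-residue product, so a value summed by protein tag would count it there. The whole file held 93 models of this kind, exact matches in introns with an assembled name, and this was the only one among the members.

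The partners of KRAB zinc finger proteins were looked up in a list of 21 cofactor genes, of which 6 (28.6%, interval 11.3 to 52.2%; whole file 12.4%) had a joined model. PPHLN1, a subunit of the silencing complex HUSH, had 5, ATF7IP, which binds SETDB1, and SMARCAD1, a chromatin remodeller, 2 each, and SETDB1, CHD3 and FAM208A 1 each. TRIM28 itself had 1 reference transcript and no joined model, as did HDAC1, CHD4, MPHOSPH8, MORC2 and MORC3. The other 9, CBX1, CBX3, CBX5, HDAC2, TRIM24, TRIM33, DNMT1, DNMT3A and UHRF1, had 2 to 5 reference transcripts and no joined model. All 6 cofactors with a joined model had at least 2 reference transcripts. Only 6 of the 21 had a single one, against 62.1% of names in the whole file. Among whole-file names with at least 2 multi-exon reference transcripts, 27.7% had a joined model. That share is not like the 28.6%, which also counts the 6 cofactors with a single reference transcript. Of the cofactors with at least 2, 6 had a joined model and 9 did not. A list of 21 genes leaves a wide interval, and no test was made. Whether transcript number accounts for the higher share among the cofactors was therefore not tested.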

How the data were processed

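The authors deposited 1 merged transcript assembly for the 6 libraries, holding exon starts and ends in bases and text tags. Per the submitters' processing notes, the tools were TopHat2 and Cufflinks and the build hg19; no version or setting is listed. All 555595 lines are exons and 0 carry a score, so the planned comparison of the induced and control libraries had no values to use. Groups came from the sample titles.

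Models were rebuilt in Python 3.11.15 (numpy 2.4.6, scipy 1.17.1) and read on GRCh37, the sequence of hg19. A frame ran from ATG to the first stop, and the longest was used. GENCODE release 44, in its version lifted to GRCh37, served to look up each chain of introns. Finger and frame counts were tested on simulated sequences. Named genes followed a rule: all members with a joined model or a shared locus, the ends of the 3 largest clusters, and those with the longest and shortest last exons, most fingers, starts and protein tags. Other genes named were chosen after their values were seen. Members and lists were chosen with earlier results of these data known. No test was made, because models of a family are not replicates. Alternatives are in the closing section.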

Additional observations from a re-analysis of the deposited data

How the results depend on the processing

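No paired analysis was possible because the assembly carries no value per library, and for the same reason no replicate could be left out. Of 20 alternatives, 16 stayed within 1.5 times the value reported and 4 moved by more. A cluster gap of 500 kb gave 20 clusters in place of 33. The share of members with a joined model, 6.33%, became 15.7% with at least 2 multi-exon reference transcripts and 28% with at least 3. It was 27% when the longest of these also had 3 to 6 exons. Each of these settings counted fewer genes, and what accounts for the higher shares was not tested. The last 2 settings, and leaving out members that share a locus (5.26%), were chosen after seeing the data. With a tolerance of 3 bases, 107 in place of 73 members had an internal exon near 96 bases. Without read counts, depth limits every statement on use of a transcript.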
